A study of Mus musculus with 12 samples.

Results

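The genes described here are 10 genes of choroid plexus identity and secretion among the 55421 genes counted in hippocampal RNA-seq of *Fmr1* KO and WT mice. They are the transcription factors *Otx2*, *Lmx1a* and *Msx1*, the receptors *Folr1* and *Prlr*, the secreted or shed proteins *Enpp2*, *Kl* and *Sostdc1*, and the epithelial genes *Tmem72* and *Calml4*. The genes are a list of names that was drawn up with earlier results of these data known, so their counts below are a description and not independent evidence. Their Ensembl identifiers in the count files were matched to mouse symbols. All 10 had more than 20 counts in total and were tested.

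The study asked whether a transient treatment with Nutlin-3, an inhibitor of the binding of MDM2 to p53, left lasting changes in the hippocampus of mice without the RNA-binding protein FMRP. Male KO mice (*Fmr1* -/y) and WT mice (*Fmr1* +/y) of C57BL/6 background were injected with Nutlin-3 or vehicle at 2 months of age, and hippocampi were harvested at 6 months. The groups are WT-Veh (libraries RH2, RH5 and RH15), WT-Nut3 (RH1, RH9 and RH14), KO-Veh (RH7, RH10 and RH16) and KO-Nut3 (RH6, RH8 and RH13), with 3 libraries each, and the knockout is present in all cells of the KO mice. Part of the study used mice that also carried a *Nestin*-GFP transgene, and for the mice of these libraries this is not stated in the sources used here. Reads on genes ranged from 17150820 (WT-Veh RH2) to 20040482 (WT-Nut3 RH9) per library. Levels are CPM, read counts scaled to a common library size with TMM factors of edgeR, and a fold change is given with its standard error (SE). The study calls the libraries of a group biological replicates, and whether each is 1 mouse is not stated in the sources used here.

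The choroid plexus is a sheet of secretory epithelium that lies in the ventricles of the brain, next to the hippocampus along the lateral ventricle, and makes cerebrospinal fluid. Its epithelium forms from the dorsal midline of the neural tube under the control of roof plate factors such as LMX1A, MSX1 and OTX2. The mature cells carry folate and hormones between blood and fluid and secrete proteins, of which transthyretin (*Ttr*) is the best known.

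The labels were checked first. *Fmr1* stood at 79.5, 75.3 and 77.7 CPM in WT-Veh RH2, RH5 and RH15, and at 75.2, 74.0 and 78.3 CPM in WT-Nut3 RH1, RH9 and RH14. In KO-Veh RH7, RH10 and RH16 it stood at 32.7, 32.5 and 37.3 CPM, and in KO-Nut3 RH6, RH8 and RH13 at 30.6, 28.5 and 35.7 CPM. Every KO library lay below every WT library, by 1.18 on the log2 scale in KO-Veh against WT-Veh (adjusted *P*-value 1.76e-06 in edgeR). The 8 markers of hippocampal neurons, among them *Prox1* of the dentate gyrus and *Fibcd1* of CA1, had reads in every library and summed to between 800.1 CPM (KO-Nut3 RH6) and 1335 CPM (KO-Veh RH16), with *Zbtb20* the most abundant.

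*Ttr*, the most abundant transcript of choroid plexus epithelium, divided the libraries. WT-Nut3 RH9 had 4215 CPM, KO-Nut3 RH6, RH8 and RH13 had 3091, 314 and 4519.7 CPM, and the other 8 libraries lay between 3.15 and 18.2 CPM. These 4 libraries, called Ttr-rich here, are shown by name, and because they are marked by a measured gene they were neither averaged nor tested as a group. All 3 KO-Nut3 libraries are among them, and 1 of 3 WT-Nut3 libraries.

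The 10 genes followed the same division, except that *Lmx1a* and *Prlr* in KO-Nut3 RH8 lay below some libraries that were not Ttr-rich. *Lmx1a* had 0.344 CPM in KO-Nut3 RH8, against 0.420 CPM in WT-Veh RH5 and 0.393 CPM in WT-Nut3 RH14. *Prlr* had 6.59 CPM in KO-Nut3 RH8, against 8.94 CPM in KO-Veh RH16. Compared with KO-Veh, all 10 had higher levels after Nutlin-3 in KO mice, with a median log2 fold change of 3.31 against 0.0034 over the 22592 genes tested, and *Tmem72* and *Folr1* rose past the threshold of an adjusted *P*-value under 0.05 in edgeR. Of all genes tested, 0.195% passed it in this direction. All 10 had an unadjusted *P*-value under 0.05, as did 7.6% of all genes. For 9 of the 10 genes every KO-Nut3 library lay above every KO-Veh library, which was so for 7.85% of all genes, and the exception was *Prlr*. KO-Nut3 RH8 was the lowest KO-Nut3 library for each of the 10 genes. In bulk tissue, fewer cells of a type and less RNA per cell cannot be told apart, so a higher level here may be more epithelium in the sample or more transcript in each cell.

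**Figure D1:**
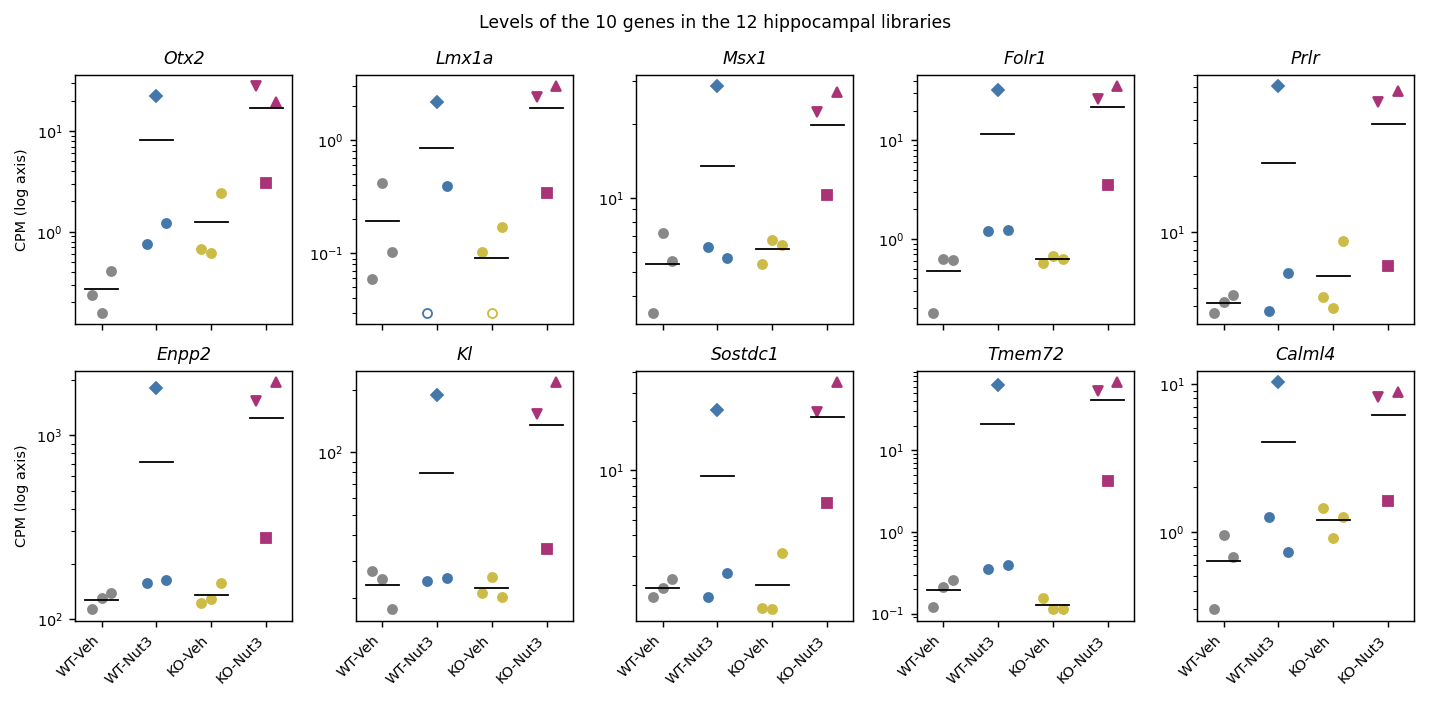
Levels of the 10 genes in CPM on a log axis, 1 point per library and 3 libraries per group, with the group mean as a bar and libraries without a read drawn open at an arbitrary low position. The diamond is WT-Nut3 RH9, the downward triangle KO-Nut3 RH6, the square KO-Nut3 RH8 and the upward triangle KO-Nut3 RH13, and the square lies below both triangles in every panel.

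OTX2 is a homeobox factor needed for the choroid plexus to form and to be kept. *Otx2* (ENSMUSG00000021848, chr14:48657677-48673819, GRCm38, minus strand) had 28.0, 3.04 and 19.2 CPM in KO-Nut3 RH6, RH8 and RH13, and 0.671, 0.620 and 2.45 CPM in KO-Veh RH7, RH10 and RH16. In WT-Nut3 RH1, RH9 and RH14 it had 0.761, 22.4 and 1.23 CPM, and in WT-Veh RH2, RH5 and RH15 0.239, 0.158 and 0.412 CPM. The KO-Nut3 and KO-Veh libraries did not overlap, although KO-Nut3 RH8 and KO-Veh RH16 lay close together. The log2 fold change was 3.75 ± 0.760 (SE) in edgeR, or 3.16 to 4.68 with 1 library left out. The adjusted *P*-value was 0.121 in edgeR, 0.0213 with DESeq2 and 0.654 with limma-voom. With a term for the RH number in edgeR it was 0.194. *Otx2* shares 154 exon bases with the antisense gene *Otx2os1*, and since the counts do not use strand, reads of the pair cannot be fully separated.

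Because the 10 genes include 3 homeobox factors, their promoters were searched on both strands for TAATCC, the core bound by OTX proteins, and TAATTA, a core of many homeodomain proteins including those of the LMX and MSX families. The sequences are from RefSeq (GRCm38.p6) and run from 250 bases before to 50 bases after a start, and 7 of the 10 genes were matched, with 12 starts. *Folr1*, *Enpp2* and *Sostdc1* were not matched. A match to TAATCC was found at 1 of the 12 starts, against 7.06% of all 32851 promoters in the table, and a match to TAATTA at 2 of the 12, against 5.29%. All of these lie at *Otx2* itself, and no match in the other windows says only that these letters are not there. The promoters with a match are shown with the matches in capitals, GGATTA being TAATCC on the other strand, and that of *Tmem72*, the gene with the largest rise, is shown beside them without any.
*Otx2*, chr14:48665060-48665359, minus strand: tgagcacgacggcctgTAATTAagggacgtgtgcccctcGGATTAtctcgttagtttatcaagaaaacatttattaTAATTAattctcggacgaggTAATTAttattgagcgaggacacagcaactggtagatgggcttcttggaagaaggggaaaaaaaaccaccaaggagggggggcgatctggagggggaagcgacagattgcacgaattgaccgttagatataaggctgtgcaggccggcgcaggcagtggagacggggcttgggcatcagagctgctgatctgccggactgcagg
*Otx2*, chr14:48667595-48667894, minus strand: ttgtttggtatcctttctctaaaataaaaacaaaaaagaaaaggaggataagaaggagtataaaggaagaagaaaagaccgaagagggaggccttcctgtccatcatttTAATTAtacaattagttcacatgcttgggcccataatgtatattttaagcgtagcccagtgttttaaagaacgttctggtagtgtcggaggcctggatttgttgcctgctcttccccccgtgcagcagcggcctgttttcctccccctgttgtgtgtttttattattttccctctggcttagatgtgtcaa
*Tmem72*, chr6:116716709-116717008, minus strand: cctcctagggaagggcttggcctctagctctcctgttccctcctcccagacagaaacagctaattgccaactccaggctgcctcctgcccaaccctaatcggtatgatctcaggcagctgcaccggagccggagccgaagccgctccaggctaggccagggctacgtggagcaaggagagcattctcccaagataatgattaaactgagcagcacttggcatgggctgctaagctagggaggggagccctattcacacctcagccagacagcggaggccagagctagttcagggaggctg
In the first of these *Otx2* promoters the TAATCC match begins 211 bases before the start and the TAATTA matches 234, 174 and 154 bases before it. In the second the match begins 141 bases before the start. The matches are a description of the sequence and were not tested for binding.

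LMX1A is a LIM homeobox factor of the roof plate. *Lmx1a* (ENSMUSG00000026686, chr1:167689237-167848741) was the scarcest of the 10 genes in reads, with 43, 6 and 55 reads in KO-Nut3 RH6, RH8 and RH13 and 2, 0 and 3 reads in KO-Veh RH7, RH10 and RH16. WT-Nut3 RH1, RH9 and RH14 had 0, 44 and 7 reads, and WT-Veh RH2, RH5 and RH15 had 1, 8 and 2 reads. KO-Veh was therefore at the floor, taken as 3 counts in each library or at most 0.171 CPM, and the KO-Nut3 mean of 1.92 ± 1.40 CPM (SD, n = 3) was at least 11.2-fold higher (adjusted *P*-value 0.139 in edgeR). This floor covers counting error only.

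MSX1 is a homeobox factor of dorsal midline tissue and of its BMP response. *Msx1* (ENSMUSG00000048450, chr5:37820485-37824583) had 22.3, 10.3 and 27.0 CPM in KO-Nut3 RH6, RH8 and RH13, against 5.37, 6.71 and 6.44 CPM in KO-Veh RH7, RH10 and RH16. WT-Nut3 RH9 had 28.6 CPM, while WT-Nut3 RH1 and RH14 had 6.29 and 5.66 CPM and the WT-Veh libraries 3.40 to 7.20 CPM. The groups of KO mice did not overlap, and the log2 fold change of 1.69 ± 0.298 (SE) at an adjusted *P*-value of 0.0706 in edgeR was the smallest of the 10. KO-Nut3 RH8 held more *Msx1* relative to the other Ttr-rich libraries than it did of any other of the 10 genes.

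Of the receptors, *Folr1* rose in KO-Nut3 and *Prlr* did not pass. FOLR1 is the folate receptor by which the choroid plexus moves folate into cerebrospinal fluid. *Folr1* (ENSMUSG00000001827, chr7:101858331-101870788) stood at 26.0, 3.49 and 35.6 CPM in KO-Nut3 RH6, RH8 and RH13 and at 0.568, 0.677 and 0.627 CPM in KO-Veh RH7, RH10 and RH16. WT-Nut3 RH1, RH9 and RH14 had 1.22, 32.3 and 1.23 CPM, each above the highest WT-Veh library, which had 0.630 CPM. The KO-Veh libraries lay within a narrow range, and the log2 fold change between the KO groups was 5.11 ± 0.798 (SE) at an adjusted *P*-value of 0.0456 in edgeR. The adjusted *P*-value was 5.92e-06 with DESeq2 and 0.677 with limma-voom. With a term for the RH number in edgeR it was 0.0581, at a log2 fold change of 5.39. *Folr1* passed in 2 of 6 edgeR fits with 1 library left out.

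Other genes that handle folate were compared in the same way. Of 8 such genes, 0 passed in any comparison with edgeR, and the median log2 fold change in KO-Nut3 against KO-Veh was 0.018. There 2 of the 8 had an unadjusted *P*-value under 0.05, against 7.6% of all genes. These were the reduced folate carrier *Slc19a1* and the folate receptor *Folr2*, named after their values were seen, and for both the KO-Nut3 libraries lay above the KO-Veh libraries. *Slc19a1* had 18.9 ± 1.45 against 14.2 ± 1.25 CPM (SD, n = 3 each), and *Folr2* had 2 to 10 reads in KO-Nut3 and 0 to 2 in KO-Veh, so the order of its nearest libraries rests on the scaling. The most abundant, *Mthfd1*, which interconverts folates in the cell, spanned 42.4 to 51.7 CPM over the 12 libraries. *Mtr*, methionine synthase, spanned 30.2 to 40.5 CPM, and the intestinal and choroidal folate carrier *Slc46a1* spanned 15.9 to 19.9 CPM.

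PRLR is the receptor for the hormone prolactin. *Prlr* (ENSMUSG00000005268, chr15:10177238-10349180) had 50.1, 6.59 and 57.0 CPM in KO-Nut3 RH6, RH8 and RH13, and 4.49, 3.95 and 8.94 CPM in KO-Veh RH7, RH10 and RH16. KO-Nut3 RH8 lay below KO-Veh RH16, so the groups overlapped, and the log2 fold change was 2.71 ± 0.646 (SE) at an adjusted *P*-value of 0.198 in edgeR. *Prlr* was also the one gene of the 10 that did not pass with DESeq2 (adjusted *P*-value 0.111). WT-Nut3 RH9 had 61.0 CPM, against 3.80 and 6.06 CPM in WT-Nut3 RH1 and RH14 and 3.70 to 4.64 CPM in WT-Veh.

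Prolactin itself was hardly present, with at most 1 read of *Prl* in a library. Of the 7 genes listed for prolactin signaling, 6 were tested and 0 passed in any comparison with edgeR, although 4 of the 6 had an unadjusted *P*-value under 0.05 in KO-Nut3 against KO-Veh, where their median log2 fold change was 0.36. The kinase *Jak2* spanned 37.1 to 50.2 CPM and the feedback inhibitor *Socs2* 19.0 to 32.7 CPM over all libraries. The transcription factor *Stat5b* spanned 18.4 to 36.7 CPM and the growth hormone receptor *Ghr* 8.92 to 14.9 CPM, both highest in KO-Nut3 RH6.

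ENPP2, also called autotaxin, is a secreted enzyme that makes lysophosphatidic acid and is known in oligodendrocytes as well as in the choroid plexus. *Enpp2* (ENSMUSG00000022425, chr15:54838901-54952892) had 1532, 278 and 1945 CPM in KO-Nut3 RH6, RH8 and RH13, and 122, 128 and 157 CPM in KO-Veh RH7, RH10 and RH16. WT-Nut3 RH1, RH9 and RH14 had 157, 1819.6 and 164 CPM, and WT-Veh RH2, RH5 and RH15 had 113, 130.5 and 139 CPM. Both groups of Nutlin-3 mice lay above their vehicle groups without overlap, in WT by a narrow margin outside RH9, and the log2 fold change in KO was 3.20 ± 0.549 (SE) at an adjusted *P*-value of 0.0606 in edgeR. *Enpp2* shares 345 exon bases, 5.97% of its exon length, with the antisense gene *Gm26684*.

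For *Enpp2* and *Tmem72* the study designed qPCR primers, which show the part of each transcript that was measured apart from the reads. The study reported significant changes of both genes by qPCR in KO mice given Nutlin-3. The qPCR values were not analysed here.
*Enpp2* forward primer: tttgcactatgccaacaatcgg
*Enpp2* reverse primer: ggaggcactttagtcctgtactt
*Tmem72* forward primer: cagacccaagataccctaatgga
*Tmem72* reverse primer: gggatgattctgaccacattgt
The *Enpp2* pair lies in 4 of its 9 GENCODE M21 transcripts with a product of 213 bases, and the *Tmem72* pair in 1 of 2 transcripts with a product of 101 bases.

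The receptors and phosphatases of lysophosphatidic acid did not pass. Of 9 genes, 0 passed in any comparison with edgeR, the unadjusted *P*-value was under 0.05 for 3 in KO-Nut3 against KO-Veh, and the median log2 fold change there was 0.34. An unadjusted *P*-value under 0.05 was reached by 7.6% of all genes in that comparison. *Plpp3*, which breaks down lysophosphatidic acid, reached at most 343 CPM over the 12 libraries, and *Plpp1* at most 12.96 CPM. The receptors *Lpar1* and *Lpar4* spanned 19.8 to 33.0 CPM and 2.94 to 4.34 CPM. Genes of oligodendrocytes, a cell type in which *Enpp2* is known, summed to 3844 to 6566 CPM over the 12 libraries and to 4787, 6566, 5607 and 5525 CPM in WT-Nut3 RH9 and KO-Nut3 RH6, RH8 and RH13. Their most abundant gene was *Mbp*, none of these 10 oligodendrocyte genes was at 0 in any library, and 0 of 10 passed in any comparison with edgeR. All 10 of them were nevertheless higher in both treated groups than in vehicle, with a median log2 fold change of 0.21 and 3 under an unadjusted *P*-value of 0.05 in KO, and of 0.26 and 4 in WT. Over all genes 7.6% in KO and 3.17% in WT had an unadjusted *P*-value under 0.05. The part of the oligodendrocyte genes in the level of *Enpp2* was not tested.

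KL (Klotho) is a membrane protein whose outer part is shed and which acts with FGF receptors as a receptor for FGF23. *Kl* (ENSMUSG00000058488, chr5:150952607-150993817) had 153, 34.1 and 216 CPM in KO-Nut3 RH6, RH8 and RH13, and 21.1, 25.1 and 20.2 CPM in KO-Veh RH7, RH10 and RH16. WT-Nut3 RH9 had 189 CPM, while WT-Nut3 RH1 and RH14 with 24.0 and 25.0 CPM lay within the WT-Veh range of 17.6 to 26.9 CPM. The KO groups did not overlap, with a log2 fold change of 2.60 ± 0.513 (SE) at an adjusted *P*-value of 0.110 in edgeR. For the 6 partners of Klotho the median log2 fold change was 0.13, and 0 passed in any comparison with edgeR, with 2 of 6 under an unadjusted *P*-value of 0.05. An unadjusted *P*-value under 0.05 in KO-Nut3 against KO-Veh was reached by 7.6% of all genes. With *Fgf23*, which was at the floor in KO-Veh, set to its lower bound, the median of the 6 partners was -0.0094. The receptors *Fgfr1*, *Fgfr3* and *Fgfr2* spanned 123 to 155, 114 to 149.8 and 44.1 to 68.2 CPM over the 12 libraries, and the related co-receptor *Klb* 0.299 to 1.52 CPM.

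SOSTDC1 is a secreted inhibitor of BMP and WNT signals. *Sostdc1* (ENSMUSG00000036169, chr12:36314139-36318452) had 22.7, 6.30 and 34.6 CPM in KO-Nut3 RH6, RH8 and RH13, and 1.45, 1.41 and 3.13 CPM in KO-Veh RH7, RH10 and RH16. WT-Nut3 RH1, RH9 and RH14 had 1.67, 23.6 and 2.36 CPM, against 1.67 to 2.16 CPM in WT-Veh. The KO groups did not overlap, KO-Veh RH16 being the highest of its group, and the log2 fold change was 3.41 ± 0.570 (SE) at an adjusted *P*-value of 0.0563 in edgeR. In KO-Nut3 against KO-Veh 6 of 11 BMP and WNT partners reached an unadjusted *P*-value below 0.05 in edgeR, against 7.6% of all genes. The median log2 fold change of the 11 was 0.39, and 1 of them rose past the threshold, against 0.195% of all genes. The one that rose was *Bmp6*, a BMP ligand, with 24.3, 26.3 and 23.9 CPM in KO-Nut3 RH6, RH8 and RH13 and 7.64, 5.19 and 6.72 CPM in KO-Veh RH7, RH10 and RH16, a rise of 1.93 ± 0.142 (SE) on the log2 scale at an adjusted *P*-value of 0.0013 in edgeR. Unlike the 10 genes, *Bmp6* was no lower in KO-Nut3 RH8 than in the other KO-Nut3 libraries, and it stood at 18.3 CPM in WT-Veh RH5.

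*Tmem72* (ENSMUSG00000048108, chr6:116679063-116716913) encodes a membrane protein of little known function. It had 961, 73 and 1229 reads in KO-Nut3 RH6, RH8 and RH13, or 53.3, 4.18 and 67.5 CPM, and 3, 2 and 2 reads in KO-Veh RH7, RH10 and RH16. WT-Nut3 RH1, RH9 and RH14 had 7, 1258 and 7 reads, and WT-Veh RH2, RH5 and RH15 had 2, 4 and 5 reads. KO-Veh was at the floor, so the KO-Nut3 mean of 41.7 ± 33.2 CPM (SD, n = 3) was at least 244-fold higher (adjusted *P*-value 0.0386 in edgeR). It was the largest difference among the 10 genes. *Tmem72* passed in 2 of 6 edgeR fits with 1 library left out. Its adjusted *P*-value was 8.11e-10 with DESeq2 and 0.748 with limma-voom.

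CALML4 is a calmodulin-like light chain of the protein complex that links microvilli. *Calml4* (ENSMUSG00000032246, chr9:62858080-62875921) had 8.15, 1.60 and 8.84 CPM in KO-Nut3 RH6, RH8 and RH13, and 1.45, 0.902 and 1.25 CPM in KO-Veh RH7, RH10 and RH16. KO-Nut3 RH8 and KO-Veh RH7 had 28 reads each, so their order rests on the scaling, and the log2 fold change was 2.36 ± 0.541 (SE) at an adjusted *P*-value of 0.180 in edgeR. WT-Nut3 RH9 had 10.2 CPM, the highest value of the 12 libraries, while the WT-Veh libraries had 0.299 to 0.946 CPM. Its known partners were nearly absent. The 5 genes of the complex summed to 0.974 to 2.04 CPM, 3 of them could be tested, and 0 of the 3 passed in any comparison with edgeR. The median of these 3 in KO-Nut3 against KO-Veh was 0.35, with 0 under an unadjusted *P*-value of 0.05, and the most abundant of the complex, the protocadherin *Cdhr2*, spanned 0.333 to 1.18 CPM. *Anks4b*, *Ush1c* and *Myo7b* of the same complex reached at most 0.795, 0.275 and 0.333 CPM.

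The calls in KO-Nut3 against KO-Veh depended on the test and on single libraries. With DESeq2, 9 of the 10 genes passed, against 1.35% of all genes to which it gave an adjusted *P*-value, and with limma-voom 0 passed, against 0.0841% of all genes. Without KO-Nut3 RH8 all 10 passed in edgeR, against 1.18% of all genes, and without KO-Nut3 RH6 4 did, against 0.288%. Without KO-Nut3 RH13 0 of the 10 passed (0.181% of all genes), and likewise 0 without KO-Veh RH7 (0.0266%), RH10 (0.0266%) or RH16 (0.031%). The median log2 fold change was 3.76 without RH8 and 2.80 without RH13. *Tmem72* and *Folr1* also did not pass in edgeR with all 12 libraries in one fit, with an adjusted *P*-value of 0.298 for both. With a term for the RH number it was 0.0581 for both.

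In WT mice the same comparison rested on 1 library. In WT-Nut3 against WT-Veh all 10 genes were higher in WT-Nut3, with a median log2 fold change of 2.49 against 0.00017 over all genes, but 0 passed in edgeR and 0 with limma-voom, as did 0% of all genes with either. DESeq2 gave an adjusted *P*-value for 5 of the 10 genes, and 0 of these passed, again as did 0% of all genes. The 5 without one were *Otx2*, *Folr1*, *Enpp2*, *Sostdc1* and *Tmem72*. An unadjusted *P*-value under 0.05 was reached by 9 genes in edgeR, against 3.17% of all genes. With limma-voom 0 of the 10 reached it, at a median log2 fold change of 1.49, against 580 of all 22592 genes. With DESeq2 2 of the 5 genes that had an adjusted *P*-value did, against 340 of all genes. With a term for the RH number in edgeR 3 of the 10 did, at a median of 1.59, against 590. The groups did not overlap for *Otx2*, *Folr1*, *Enpp2* and *Tmem72*, 4 of 10, against 3.6% of all genes. Without WT-Nut3 RH9 the median fell from 2.49 to 0.28, 9 genes were still higher and 3 had an unadjusted *P*-value under 0.05, against 2.65% of all genes. In that fit *Otx2* had a log2 fold change of 1.85 and *Folr1* of 1.33.

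In vehicle-treated mice the genotypes were compared in the same way. In KO-Veh against WT-Veh, 0 of 10 genes passed in edgeR, with DESeq2 or with limma-voom, against 0.0177%, 0.0975% and 0.0133% of all genes with these tools, and the median log2 fold change was 0.14 against -0.0043 over all genes, or from 0.0024 without WT-Veh RH2 to 0.30 without WT-Veh RH5. *Otx2* was higher in each KO-Veh library than in any WT-Veh library, which was so for 5.9% of all genes, with 1.25 ± 1.04 against 0.269 ± 0.130 CPM (SD, n = 3 each) and a log2 fold change of 2.17 ± 0.613 (SE) at an adjusted *P*-value of 0.608 in edgeR. Its highest value, 2.45 CPM, was that of KO-Veh RH16, and without that library the log2 fold change was 1.24. KO-Veh RH16 was also the highest vehicle library for *Prlr*, *Sostdc1* and *Enpp2*, and for the summed genes of ependyma. *Calml4* had a log2 fold change of 0.89 ± 0.410 (SE) and, like *Otx2*, an unadjusted *P*-value under 0.05, which these 2 of the 10 genes reached in edgeR, against 7.2% of all genes.

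Between the treated groups no difference could be shown. In KO-Nut3 against WT-Nut3, 0 of 10 genes passed in edgeR, with DESeq2 or with limma-voom, against 0.00443%, 0.0359% and 0.00443% of all genes, and the one gene that passed in edgeR was *Fmr1*. An unadjusted *P*-value below 0.05 was reached by 0 of the 10 in edgeR, against 4.87% of all genes. The groups overlapped for all 10 genes, and 5.3% of all genes stood apart with KO-Nut3 higher. The median log2 fold change was 0.85, and without WT-Nut3 RH9 it was 3.12 with all 10 under an unadjusted *P*-value of 0.05, against 6.12% of all genes, and 0 past the threshold, against 0.031%. It was 1.34 without KO-Nut3 RH8, and lower at 0.34, 0.35 and 0.34 without WT-Nut3 RH1, WT-Nut3 RH14 and KO-Nut3 RH13. The interaction of genotype and treatment gave 0 of 10 past the threshold in edgeR, with DESeq2 and with limma-voom, against 0%, 0.00443% and 0% of all genes, and 0 of 10 under an unadjusted *P*-value of 0.05 in edgeR, against 4.17%. Its standard errors were large, for example 2.07 on a log2 value of 0.55 for *Folr1* and 1.08 on 0.72 for *Enpp2*. Without WT-Nut3 RH9 the median interaction over the 10 genes went from 0.64 to 2.70, *Folr1* stood at 3.79 ± 1.29 (SE) and *Enpp2* at 2.88 ± 0.681 (SE), and 8 of 10 had an unadjusted *P*-value under 0.05, against 5.02% of all genes, with 0 past the threshold in edgeR. The median was 1.12 without KO-Nut3 RH8, and it fell to 0.12, 0.12 and 0.17 without WT-Nut3 RH1, WT-Nut3 RH14 and KO-Nut3 RH13. These comparisons share libraries with each other and are not independent. By group mean the order was KO-Nut3, WT-Nut3 and then the vehicle groups for each of the 10 genes, and the step from WT-Nut3 to KO-Nut3 was smaller than the SD of WT-Nut3 for all 10.

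**Figure D2:**
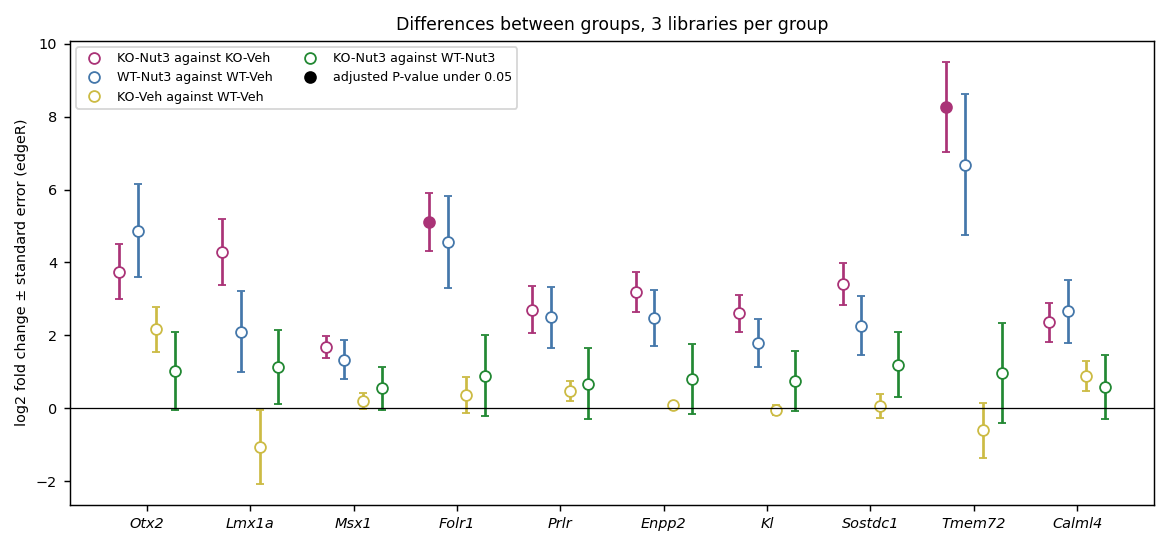
Log2 fold change of each of the 10 genes in 4 comparisons with its standard error as a bar, from the quasi-likelihood test of edgeR on 3 libraries per group, where a filled point has an adjusted *P*-value under 0.05. The filled points are *Folr1* and *Tmem72* in KO-Nut3 against KO-Veh. For each gene the bar of WT-Nut3 against WT-Veh is wider than that of KO-Nut3 against KO-Veh.

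Levels of different genes were compared per kilobase of exon. Over the 6 vehicle libraries *Enpp2* was the highest with 22.7 ± 2.64 CPM per kilobase (SD, n = 6), followed by *Kl* with 2.42 ± 0.378, *Msx1* with 1.86 ± 0.438 and *Sostdc1* with 1.10 ± 0.362 CPM per kilobase. *Prlr* (0.325 ± 0.128), *Calml4* (0.252 ± 0.112), *Folr1* (0.239 ± 0.0805) and *Otx2* (0.180 ± 0.202 CPM per kilobase) followed and did not differ beyond their spread. *Lmx1a* with 0.0421 ± 0.0433 and *Tmem72* with 0.0094 ± 0.0035 CPM per kilobase were the lowest. In KO-Nut3 RH13 the order by CPM per kilobase was *Enpp2* at 337, *Kl* at 23.2, *Sostdc1* at 19.4, *Folr1* at 15.5, *Msx1* at 8.72, *Otx2* at 4.55, *Tmem72* at 3.93, *Prlr* at 3.72, *Calml4* at 2.43 and *Lmx1a* at 0.889. Compared with the order among the vehicle libraries, *Sostdc1*, *Folr1*, *Otx2* and *Tmem72* stood higher there, and *Msx1*, *Prlr*, *Calml4* and *Lmx1a* lower. The exon length is that of all annotated exons merged, which is 17177 bases for *Tmem72* and 15339 bases for *Prlr*, so their values per kilobase are low if shorter transcripts prevail.

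The ratios of the 10 genes to each other were then compared between the 4 Ttr-rich libraries. *Enpp2* made up 80.8% of the reads of the 10 genes in WT-Nut3 RH9 (95% Wilson interval 80.4 to 81.2), 80.7% in KO-Nut3 RH6 (80.3 to 81.1), 79.9% in KO-Nut3 RH8 (78.8 to 80.9) and 80.6% in KO-Nut3 RH13 (80.2 to 80.9). The 4 intervals overlapped, and the share in the other 8 libraries was close as well, at 75.5% to 81.3%. The intervals cover counting error only. *Kl* made up 8.41%, 8.08%, 9.81% and 8.96% in the same order of libraries, against 10.1% to 17.99% in the other 8 libraries.

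Of the transcription factors, *Otx2* made up 0.993% of the reads in WT-Nut3 RH9 (0.906 to 1.09), 1.47% in KO-Nut3 RH6 (1.35 to 1.61), 0.874% in KO-Nut3 RH8 (0.669 to 1.14) and 0.796% in KO-Nut3 RH13 (0.717 to 0.884). The interval of KO-Nut3 RH6 lay above those of the other 3 libraries. *Msx1* made up 1.27%, 1.18%, 2.97% and 1.12%, with KO-Nut3 RH8 (2.57 to 3.42) above the rest, as in the other 8 libraries, where it made up 2.28% to 4.21%. *Lmx1a* made up 0.0971%, 0.126%, 0.0989% and 0.125%, with intervals that overlapped.

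Of the receptors and other genes, *Folr1* made up 1.43%, 1.37%, 1.005% and 1.48% in WT-Nut3 RH9 and KO-Nut3 RH6, RH8 and RH13, and 0.120% to 0.620% in the other 8 libraries. *Tmem72* made up 2.78%, 2.81%, 1.20% and 2.80%, and 0.0569% to 0.190% elsewhere. *Sostdc1* made up 1.05% (0.958 to 1.15) in WT-Nut3 RH9 and 1.43% (1.33 to 1.55) in KO-Nut3 RH13, intervals that did not overlap, as was also so for *Otx2*, *Prlr* and *Kl* between these libraries. *Prlr* made up 2.71%, 2.64%, 1.90% and 2.36%, and *Calml4* 0.454%, 0.429%, 0.462% and 0.366%. Over the 4 libraries, 6 of the 10 genes kept a share within 1.5 times, and the exceptions were *Otx2*, *Msx1*, *Sostdc1* and *Tmem72*. With the mean of the 6 vehicle libraries subtracted the number was again 6, but *Tmem72* then lay within 1.5 times and *Prlr* did not. On either strand alone the number was lower.

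Set against KO-Nut3 RH13, the library with the most *Ttr*, the 10 genes stood at 0.682 (*Sostdc1*) to 1.16 (*Otx2*) times its level in WT-Nut3 RH9, with a median of 0.931, while *Ttr* stood at 0.933. In KO-Nut3 RH6 they stood at 0.656 (*Sostdc1*) to 1.45 (*Otx2*) times, with a median of 0.790, and *Ttr* at 0.684, so 9 of the 10 genes lay above *Ttr*. After the mean of the 6 vehicle libraries was subtracted, 8 of the 10 did. Of 18 other choroid plexus genes, 15 lay above *Ttr* in KO-Nut3 RH6, with or without the subtraction. In KO-Nut3 RH8 the 10 genes stood at 0.0620 (*Tmem72*) to 0.382 (*Msx1*) times, with a median of 0.150 against 0.0694 for *Ttr*. After the mean of the 6 vehicle libraries was subtracted, the median in KO-Nut3 RH8 was 0.0822 against 0.0676 for *Ttr*, and the range was 0.0308 (*Prlr*) to 0.214 (*Msx1*). *Tmem72*, which had almost no reads in the vehicle libraries, had 14.8, 17.2, 13.3 and 14.9 reads per 1000 reads of *Ttr* in WT-Nut3 RH9 and KO-Nut3 RH6, RH8 and RH13, where *Enpp2* had 432, 496, 885 and 430. With the vehicle mean subtracted from each gene and from *Ttr*, the values were 14.8, 17.2, 13.2 and 14.9 for *Tmem72* and 401, 454, 479 and 402 for *Enpp2*.

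**Figure D3:**
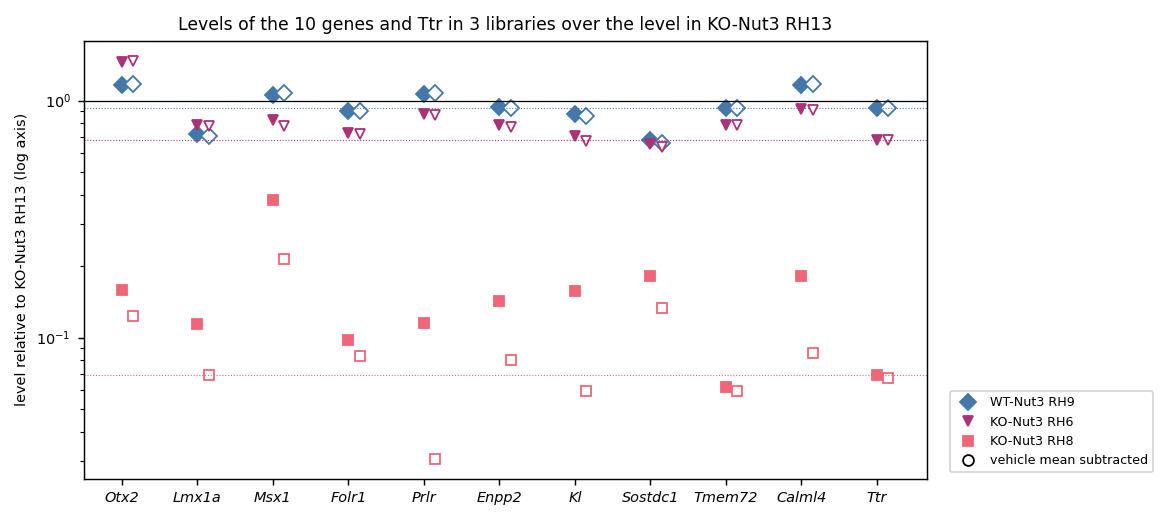
Level of each of the 10 genes and of *Ttr* in WT-Nut3 RH9, KO-Nut3 RH6 and KO-Nut3 RH8, divided by the level in KO-Nut3 RH13, on a log axis, with open symbols after the mean of 6 vehicle libraries was subtracted and dotted lines at the value of *Ttr*. *Otx2* is the highest of the 10 genes in KO-Nut3 RH6 at 1.45, and *Msx1* in KO-Nut3 RH8 at 0.382.

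Other choroid plexus genes were compared in the same way. Of 19 such genes, each had a higher mean in KO-Nut3 than KO-Veh. The median log2 fold change was 4.45, and 8 rose past the threshold in edgeR, against 0.195% of all genes. An unadjusted *P*-value under 0.05 was reached by 18, against 7.6% of all genes. These lists, like the 10 genes, were written with earlier results of these data known. Beside *Ttr* the 8 include the bicarbonate transporter *Slc4a5* (log2 fold change 6.83), the potassium channel subunit *Kcne2* (5.83), *Wdr86* (4.97), the peptidase *Ace* (3.09), *Wfikkn2* (2.95), which binds growth factors of the TGFβ family, the retinoid transporter *Abca4* (2.91) and the sulfate transporter *Slc13a4* (2.74). *Slc4a5* had 30.1, 3.44 and 37.6 CPM in KO-Nut3 RH6, RH8 and RH13, 37.4 CPM in WT-Nut3 RH9 and at most 0.285 CPM elsewhere, the division seen in *Tmem72*. *Slc13a4* instead had 36.7, 37.3 and 29.4 CPM in the KO-Nut3 libraries and 25.1 CPM in WT-Veh RH5, a library with 9.56 CPM of *Ttr*. In the other comparisons 0 of these 19 genes passed in edgeR. In WT-Nut3 against WT-Veh 12 had an unadjusted *P*-value under 0.05, against 3.17% of all genes, and the median of the 19 was 3.02.

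The 14 genes of the roof plate and of choroid plexus development were also described, and the lists were not tested against each other. For KO-Nut3 against KO-Veh, 11 of the 14 had a positive log2 fold change and 3 a negative one. The median was 1.03, or 0.78 with the gene at the floor in KO-Veh set to its lower bound. Only *Bmp6* rose past the threshold in edgeR, 1 of 14, against 0.195% of all genes. An unadjusted *P*-value under 0.05 was reached by 6, against 7.6% of all genes. In WT-Nut3 against WT-Veh the median was -0.04 and 0 of 14 passed in edgeR. There 1 of the 14 had an unadjusted *P*-value under 0.05, against 3.17% of all genes. The 14 genes summed to 178, 159 and 138 CPM in KO-Nut3 RH6, RH8 and RH13 and 118 CPM in WT-Nut3 RH9, against 69.3 to 122 CPM in the other 8 libraries.

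Markers of neighboring tissues were summed in each library, and 0 of these genes passed in any comparison with edgeR. The 12 genes of meningeal fibroblasts summed to 307 CPM in KO-Nut3 RH8 and to 232 in WT-Veh RH5, against 67.1 to 153 CPM in the other 10 libraries. Their most abundant gene, *Dcn*, had 56.5 and 58.3 CPM in these libraries but also 56.8 and 56.6 CPM in KO-Veh RH10 and RH16, *Fmod* had 48.2 and 29.9 CPM in KO-Nut3 RH8 and WT-Veh RH5, and no gene of the 12 was at 0 in any library. WT-Nut3 RH9 and KO-Nut3 RH13, the libraries with the most *Ttr*, had sums of 123 and 119 CPM, within the range of the vehicle libraries. Of the 12 genes, 11 were higher in KO-Nut3 than KO-Veh (median log2 fold change 1.37). An unadjusted *P*-value under 0.05 was reached there by 11 in edgeR, against 7.6% of all genes. In WT-Nut3 against WT-Veh all 12 were lower (-0.67), with 2 under 0.05, against 3.17%. All 12 were higher in KO-Nut3 than WT-Nut3 (1.35), and 11 of the 12 interactions were positive (2.04). Under 0.05 were 11 in each, against 4.87% and 4.17%. The 7 thalamic genes summed to 242 CPM in KO-Nut3 RH6 and to 143 to 169.7 CPM in the other libraries, led by *Ntng1*, while *Rora* had 77.3 CPM in KO-Nut3 RH6 and at most 48.3 CPM elsewhere. The hippocampal neuron genes were lowest in the same library. The 12 genes of ependyma and cilia, led by *Ccdc39*, summed to 94.3 CPM in KO-Nut3 RH13 and 85.9 CPM in KO-Veh RH16, against at most 80.8 CPM elsewhere. All 11 that were tested were higher in KO-Veh than WT-Veh (median log2 fold change 0.81) and in KO-Nut3 than KO-Veh (0.38). In WT-Nut3 against WT-Veh 9 were higher (0.68). In edgeR 5, 2 and 6 of these 11 had an unadjusted *P*-value under 0.05 in these comparisons, against 7.2%, 7.6% and 3.17% of all genes. The part of these tissues in the levels of the 10 genes was not tested, and choroid plexus taken along at dissection and a response to Nutlin-3 cannot be told apart.

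**Figure D4:**
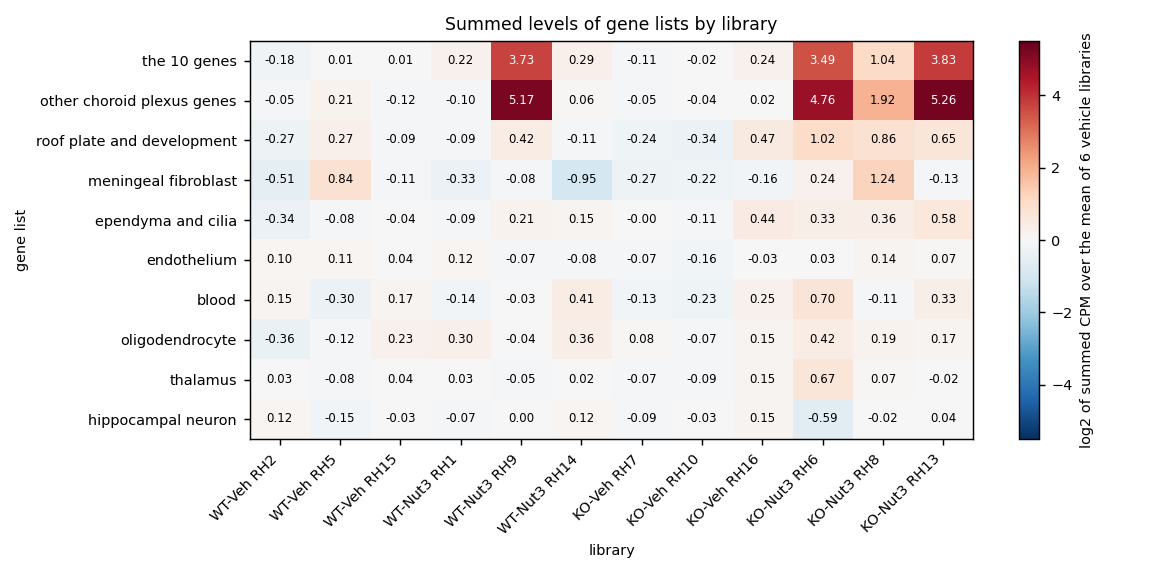
Summed CPM of each gene list in each of the 12 libraries, as log2 of its ratio to the mean of the 6 vehicle libraries, with the value printed in each cell. The 10 genes stand at 3.73 in WT-Nut3 RH9 and at 3.49, 1.04 and 3.83 in KO-Nut3 RH6, RH8 and RH13, and the meningeal fibroblast genes at 1.24 in KO-Nut3 RH8 and 0.84 in WT-Veh RH5.

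The genes whose profile was most like the mean profile of the 10 were found by the root mean square difference of centered log2 CPM over the 12 libraries. The nearest was *Trpv4*, a cation channel, with a difference of 0.432 on the log2 scale, against a median of 1.83 over the 22582 other genes tested. *Otx2os1* (0.439), *1500015O10Rik* (0.454), *Rbm47* (0.463), *Bhmt* (0.471), *Olfr570* (0.475), *Sulf1* (0.496), *Defb11* (0.527), *Ace* (0.539) and *Sult1c1* (0.543) followed. *1500015O10Rik* had 44.1, 34.5, 6.99 and 46.3 CPM in WT-Nut3 RH9 and KO-Nut3 RH6, RH8 and RH13 and at most 2.51 CPM in a vehicle library. *Sulf1*, an enzyme that trims heparan sulfate, had 60.1, 57.3, 14.4 and 71.2 CPM in these libraries and at most 8.70 CPM in a vehicle library. *Otx2os1*, *Bhmt*, *Olfr570*, *Defb11* and *Sult1c1* had means of at most 0.468 CPM over the 12 libraries, so their profiles rest on few reads.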

How the data were processed

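The authors mapped poly(A) RNA-seq reads to mm10 with STAR, per the labels, and deposited raw counts of reads per gene for each library. The version and the counting options are not given in the sources used here, and the labels and methods differ on whether reads were single or paired. The counts over both strands were used, since 50.1% to 50.4% of reads fell on the first strand. The deposited table of the whole series was not used, as it holds the same counts for fewer genes.

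Testing used edgeR 4.0.16 under R 4.3.3 with TMM scaling and kept 22592 genes, those whose counts over the 12 libraries exceeded 20 in sum. A comparison was fitted on its own 6 libraries, and the interaction on all 12, with the two-sided quasi-likelihood test and Benjamini-Hochberg adjusted *P*-values over all genes tested. Standard errors are the log2 fold change over the square root of *F*. The fit was tested on simulated data. Alternatives were DESeq2 1.42.0, limma-voom 3.58.1, DESeq2 size factors, other filters, all 12 libraries in one fit, a term for the RH number (up to RH8 or above), and the omission of each library in turn. Per the study's methods, mice were randomized to treatment, hippocampi were frozen after dissection, RNA was isolated with TRIzol, and a group has 3 biological replicates. Litters and dates of dissection are not given in the sources used here, and *P*-values measure the spread between these samples.

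Exon lengths and positions are from GENCODE M21 (GRCm38), which matched 55240 of 55421 identifiers. Of 153 list entries, 1 was not found. Lists of 15 kinds (choroid plexus, roof plate, folate, prolactin, Klotho, lysophosphatidic acid, BMP and WNT partners, microvillar complex, ependyma, meningeal fibroblasts, endothelium, oligodendrocytes, blood, thalamus and hippocampal neurons) were described by counts and medians. The genes named are the 10, *Ttr* and *Fmr1*, from each list the genes that passed or otherwise up to 4 with the highest mean CPM, and the 10 nearest in profile, from log2 CPM with a prior count of 1. A gene of the folate list that this rule names is not reported here. The members and lists were chosen with earlier results of these data known.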

Additional observations from a re-analysis of the deposited data

How the results depend on the processing

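In KO-Nut3 against KO-Veh, all 10 genes kept a higher level in KO-Nut3 in every alternative that tested them, but the number past the threshold was 2 in the main analysis, 9 with DESeq2 (1.35% of all genes), 10 when every gene with at least 1 count was tested (1.51%), and 0 with limma-voom (0.0841%), of 9 tested with the filterByExpr filter (0.201%), with all 12 libraries in one fit (0%) and with the RH number as a term (0.0885%), where the adjusted *P*-value was 0.0581 for both *Tmem72* and *Folr1*. With 1 library left out it was 0 to 10. In KO-Nut3 against WT-Nut3 the median log2 fold change of the 10 genes was 0.85 in the main analysis. It was 1.62 with limma-voom and 1.85 with the RH number as a term. The median interaction was 0.64 in the main analysis, 1.21 with limma-voom and 1.46 with the RH number as a term. When every gene with at least 1 count was tested, 1 of the 10 passed in KO-Veh against WT-Veh (0.757% of all genes), 10 in WT-Nut3 against WT-Veh (0.693%) and 3 in the interaction (0.81%; *Kl*, *Enpp2* and *Sostdc1*), against 0 in the main analysis of each, and the cause was not tested. Over all genes, the number past the threshold ranged from 0 to 544 in KO-Nut3 against KO-Veh, 1 to 272 in KO-Veh against WT-Veh, 0 to 249 in WT-Nut3 against WT-Veh, 0 to 38 in KO-Nut3 against WT-Nut3 and 0 to 291 in the interaction. The number of genes whose share of the reads stayed within 1.5 times over the 4 Ttr-rich libraries was 6, 6 with the vehicle mean subtracted (then with *Tmem72* and without *Prlr*), 3 on the first strand alone and 5 on the second. Of the 10 genes nearest in profile, 5 were shared with a prior count of 0.25 and 4 with a prior count of 5. No paired analysis was possible because the RH numbers are not shared between groups. Depth limits *Lmx1a* and *Tmem72* most, which had at most 8 and 7 reads outside the Ttr-rich libraries.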

Other observations

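The sums of vessel and blood genes did not divide the libraries as the choroid plexus genes did. The 8 endothelial genes, led by *Flt1* at 67.7 to 87.8 CPM, summed to 168 to 207 CPM over the 12 libraries. Of these 8, 0 passed in any comparison with edgeR. In KO-Nut3 against KO-Veh 4 of the 8 had an unadjusted *P*-value under 0.05, against 7.6% of all genes. For 4 of the 8 every KO-Nut3 library lay above every KO-Veh library, against 7.85% of all genes, and for 0 every one lay below. *Cldn5* of the tight junctions spanned 23.9 to 46.9 CPM, highest in WT-Veh RH2. The 5 blood genes, led by the globin *Hbb-bs* at 21.8 to 42.3 CPM, summed to 42.2 to 84.7 CPM, highest in KO-Nut3 RH6, and 0 passed in any comparison with edgeR, with 0 under an unadjusted *P*-value of 0.05 in KO-Nut3 against KO-Veh. Neither list had a gene at 0 reads in any library.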
